A study of Rattus norvegicus with 8 samples.

Results

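The unfolded protein response and the heat shock response of rat liver were followed through 33 genes chosen by their symbols. These were 17 endoplasmic reticulum (ER) chaperones and factors of the unfolded protein response, 5 genes of the ATF4 arm, and 11 genes of the heat shock response with the cytosolic and mitochondrial chaperones. Each gene was read on 1 probe set, the one with the highest mean signal over the arrays among those that the annotation gives a single gene symbol. Of the 33 genes, 30 could be read and all 30 passed the filter on dim probe sets, out of 9829 genes named by the 16253 probe sets tested. The annotation gives every probe set of Hspa1b, Hspa8 and Hsp90aa1 several symbols, so these 3 genes were not read.

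The samples were whole livers of male Sprague-Dawley rats on 8 Affymetrix arrays, 2 in each of 4 groups called vehicle, Dex, GW3965 and Dex+GW3965, and the comparisons ask how an agonist of the liver X receptors (LXRs) changes the action of a glucocorticoid. GW3965, a synthetic LXR agonist, was given by mouth at 50 mg/kg on 3 days, and dexamethasone (Dex), a synthetic agonist of the glucocorticoid receptor (GR), was injected into muscle at 1.5 mg/kg on the last of these days, 24 h before the livers were taken. Vehicle rats received the carrier of GW3965 and saline, Dex rats the carrier and Dex, GW3965 rats the agonist and saline, and Dex+GW3965 rats both compounds. The age of the rats is not given in the sources used here, and each group is 1 dose at 1 time. In the labels both arrays of a group carry the same liver number and differ by a letter, a or b, whereas the methods speak of 2 animals, so p-values may measure only the spread between arrays. In whole liver, fewer cells of a type and less RNA per cell cannot be told apart.

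When unfolded proteins gather in the ER, the sensors IRE1, PERK and ATF6 release the chaperone BiP, the product of Hspa5. IRE1 splices the mRNA of Xbp1 into one that encodes an active transcription factor, ATF6 is cut to a factor that raises chaperone genes, and PERK phosphorylates eIF2alpha, which slows translation in general while the factor ATF4 is made. In the cytosol, misfolded proteins free HSF1 from Hsp90 and Hsp70, and HSF1 then raises heat shock protein genes. The liver secretes most plasma proteins and relies on these chaperones, and the GR itself is folded by Hsp90 with its co-chaperones. The probe sets read total Xbp1 mRNA, and the splicing, cleavage and phosphorylation steps were not measured.

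Sequences of 250 bases upstream of the start were available from RefSeq (GRCr8) for 25 of the 33 genes. The 7 shown belong to genes with results below, and all 7 hold a match to a motif searched. The sequences of Asns, Atf4, Ddit3, Dnajb1, Dnajb9, Dnajb11, Hsp90ab1, Hspb1, Pdia4 and Sdf2l1, genes that also have results below, held no match and are not shown. Written 5′ to 3′ with respect to the gene, the capitals mark letters of the motifs searched on both strands.
Herpud1, chr19:10614708-10614957, minus strand: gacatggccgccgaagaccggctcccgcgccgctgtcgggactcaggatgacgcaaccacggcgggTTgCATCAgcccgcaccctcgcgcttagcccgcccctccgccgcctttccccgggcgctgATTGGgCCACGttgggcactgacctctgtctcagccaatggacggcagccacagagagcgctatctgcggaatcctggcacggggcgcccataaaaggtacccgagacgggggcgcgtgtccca
Xbp1, chr14:84604373-84604622, plus strand: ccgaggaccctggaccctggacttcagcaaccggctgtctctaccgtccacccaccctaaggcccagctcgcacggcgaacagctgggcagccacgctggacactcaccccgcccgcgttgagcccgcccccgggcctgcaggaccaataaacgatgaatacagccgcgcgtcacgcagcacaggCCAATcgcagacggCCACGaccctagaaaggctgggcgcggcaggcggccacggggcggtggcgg
Hspa5, chr3:38452766-38453015, plus strand: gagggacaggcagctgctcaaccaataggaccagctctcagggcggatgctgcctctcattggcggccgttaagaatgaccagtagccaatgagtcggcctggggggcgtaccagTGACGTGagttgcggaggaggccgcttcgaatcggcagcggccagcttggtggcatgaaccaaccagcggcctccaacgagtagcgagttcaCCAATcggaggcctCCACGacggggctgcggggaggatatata
Creld2, chr7:121789134-121789383, plus strand: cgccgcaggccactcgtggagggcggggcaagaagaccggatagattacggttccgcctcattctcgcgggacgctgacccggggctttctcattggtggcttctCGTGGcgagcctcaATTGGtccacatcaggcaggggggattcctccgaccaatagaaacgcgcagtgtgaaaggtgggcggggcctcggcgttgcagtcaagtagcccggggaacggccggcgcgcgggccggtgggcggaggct
Trib3, chr3:161275534-161275783, minus strand: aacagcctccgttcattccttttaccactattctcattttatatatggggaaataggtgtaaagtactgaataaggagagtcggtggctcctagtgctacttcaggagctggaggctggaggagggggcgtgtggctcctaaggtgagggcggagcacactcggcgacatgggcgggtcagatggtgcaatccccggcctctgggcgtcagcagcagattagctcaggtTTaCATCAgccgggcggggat
Hsph1, chr12:10427118-10427367, plus strand: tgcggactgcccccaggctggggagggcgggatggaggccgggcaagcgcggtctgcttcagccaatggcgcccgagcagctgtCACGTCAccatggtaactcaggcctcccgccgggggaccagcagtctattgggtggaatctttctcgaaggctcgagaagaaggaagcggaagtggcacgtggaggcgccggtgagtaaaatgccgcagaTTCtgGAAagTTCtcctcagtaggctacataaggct
Hspe1, chr9:64084077-64084326, plus strand: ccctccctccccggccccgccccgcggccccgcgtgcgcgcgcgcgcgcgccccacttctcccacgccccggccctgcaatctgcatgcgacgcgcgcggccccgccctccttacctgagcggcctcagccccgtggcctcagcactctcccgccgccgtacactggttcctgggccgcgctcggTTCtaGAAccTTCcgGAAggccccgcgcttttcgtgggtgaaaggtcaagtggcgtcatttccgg

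The ER stress element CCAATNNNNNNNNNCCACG, the site of ATF6 with NF-Y, was in 7 of the 25 sequences (Calr, Canx, Creld2, Dnajc3, Hsp90b1, Hspa5 and Xbp1) and in 0.0657% of 33469 promoter sequences of the same length. In Hspa5 it lay at -43 to -25 from the start, in Xbp1 at -65 to -47 and in Creld2, on the other strand, at -145 to -127. The shorter form ATTGGNCCACG was in Herpud1, at -124 to -114, and in Hyou1, against 0.0418% of all promoters. The XBP1 core TGACGTG was in Hspa5, Hsph1 and Hyou1, against 1.5387%, and overlaps an ATTGGNCCACG site in Hyou1. The amino acid response core TGATGNAA, a site of ATF4 with C/EBP factors, was in Chac1, Herpud1 and Trib3, against 3.4031%. The heat shock element GAANNTTCNNGAA was in Hspa8, Hspd1, Hspe1 and Hsph1, against 0.6633%. Hspd1 and Hspe1 are transcribed away from each other from nearby starts, so their windows overlap and hold the same 2 overlapping elements, of which those in Hspe1 lie at -65 to -53 and -60 to -48. The GR element GNACANNNTGTNC was in 0 of the 25, against 0.3735%. A gene with more than 1 sequence, such as Hyou1, was counted once among the 25, whereas the percentages are over sequences. Because the genes were chosen as members of these responses, a higher share of an element among them is descriptive. A match describes the letters of this window and no binding was measured.

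On the arrays, the ER genes and the cytosolic and mitochondrial genes moved in both directions rather than as a block. In the ATF4 arm, 4 of 5 genes rose and 0 fell with Dex, and 3 rose and 0 fell with Dex+GW3965. Dex was followed by higher Herpud1, Dnajb9 and Trib3 and by lower Pdia3, Xbp1 and Hsp90ab1 signals (the plot of all members on every array). Against vehicle, 22 of the 30 genes passed the threshold with Dex (73.3%), 12 higher and 10 lower, whereas 41.9% of all probe sets passed, 17.2% higher and 24.7% lower. With GW3965 12 genes passed (40.0%), 6 higher and 6 lower, against 20.5% of all probe sets, 5.93% higher and 14.5% lower. The 12 became 6 without GW3965 replicate b. After quantile normalization the split over all probe sets went from 963 higher and 2362 lower to 1208 and 1505. With Dex+GW3965 21 genes passed (70.0%), 9 higher and 12 lower, against 36.8% of all probe sets, 15.6% higher and 21.2% lower. These 3 comparisons use the same vehicle arrays. The threshold was a Benjamini-Hochberg adjusted p under 0.05 over all probe sets tested with limma. The shares are not fully alike, since each of the 30 genes was read on its brightest probe set. The standard error was 0.03 for the bright Hspe1 and 0.13 for the dim Asns, so small differences pass more easily on bright probe sets. The median difference of the 30 genes was -0.05 with Dex, -0.03 with GW3965 and -0.05 with Dex+GW3965 on the log2 scale, beside -0.01, -0.03 and -0.02 over all probe sets.

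**Figure D1:**
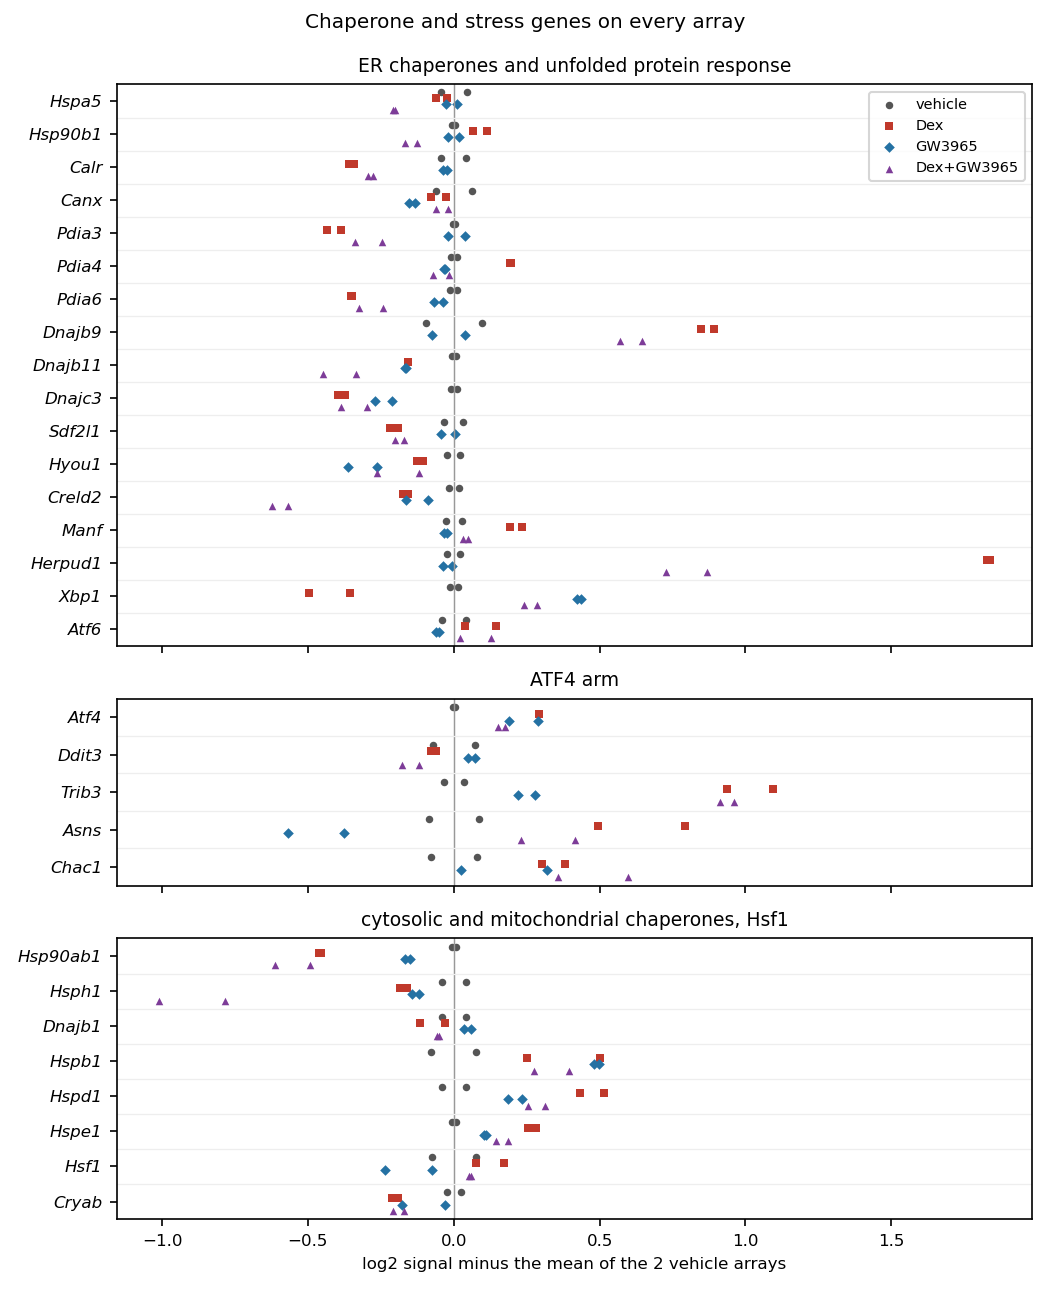
Log2 signal of each of the 30 genes on each of the 8 arrays, minus the mean of the 2 vehicle arrays; each point is 1 array, and shapes and colors mark the groups. Herpud1 lies farthest to the right with Dex, at a mean difference of 1.83, and Hsph1 farthest to the left with Dex+GW3965, at -0.90.

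Herpud1 encodes a membrane protein of the ER that takes part in ER-associated degradation, and it had the largest difference of the 30 genes. Its log2 signals were 9.46 and 9.50 on the vehicle arrays, 11.32 and 11.31 with Dex, 9.44 and 9.47 with GW3965 and 10.35 and 10.21 with Dex+GW3965. The Dex arrays stood highest, the Dex+GW3965 arrays lay between them and the other 4, and GW3965 overlapped with vehicle. Dex raised Herpud1 3.57-fold (log2 difference 1.83 over 2 arrays in each group, SE 0.05, limma adjusted p = 2.67e-15). With both compounds it was 1.74-fold above vehicle and 2.05-fold below Dex alone (log2 differences 0.80 and -1.04, adjusted p = 3.55e-10 and 3.22e-11), and GW3965 alone gave -0.02 (adjusted p = 0.801).

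Dnajb9, an ER-resident Hsp40 that restrains IRE1, followed the same order of groups. Its signals were 9.05 and 8.86 with vehicle, 9.85 and 9.80 with Dex, 8.99 and 8.88 with GW3965 and 9.52 and 9.60 with both compounds. Dex raised it 1.83-fold (log2 difference 0.87, SE 0.06, adjusted p = 2.7e-09), and Dex+GW3965 stood at 0.61 above vehicle (adjusted p = 3.96e-07). The arrays with both compounds lay below those with Dex by 0.26 on the log2 scale without overlap (log2 difference -0.26, adjusted p = 0.00505), but this call was lost without Dex replicate a (adjusted p = 0.0534) or without Dex+GW3965 replicate a (adjusted p = 0.0566).

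Xbp1, whose spliced mRNA encodes the factor of the IRE1 arm, moved in opposite directions with the 2 compounds. It read 11.56 and 11.59 with vehicle, 11.22 and 11.08 with Dex, 12.00 and 12.01 with GW3965 and 11.82 and 11.86 with Dex+GW3965. No group overlapped with another: Dex was lowest, then vehicle, then both compounds together, and GW3965 was highest. Dex lowered Xbp1 1.34-fold and GW3965 raised it 1.35-fold (log2 differences -0.43 and 0.43, SE 0.04, adjusted p = 2.26e-07 and 9.64e-07). Together they left it 1.20-fold above vehicle and 1.61-fold above Dex (log2 differences 0.26 and 0.69, adjusted p = 8.15e-05 and 1.75e-09).

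Hspa5 encodes BiP, the main Hsp70 of the ER and the usual readout of the unfolded protein response. Signals were 12.73 and 12.64 with vehicle, 12.62 and 12.66 with Dex, 12.70 and 12.66 with GW3965 and 12.48 and 12.49 with both. The first 3 groups overlapped, and both arrays with the 2 compounds lay below them. Dex alone gave -0.04 and GW3965 alone -0.01 (SE 0.04, adjusted p = 0.363 and 0.915), and Dex+GW3965 lowered Hspa5 1.15-fold against vehicle (log2 difference -0.20, adjusted p = 0.000179).

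Creld2, a secreted stress-induced protein with disulfide isomerase activity, fell most among the ER genes with both compounds. It read 10.20 and 10.23 with vehicle, 10.06 and 10.04 with Dex, 10.13 and 10.05 with GW3965 and 9.59 and 9.65 with Dex+GW3965. The last pair stood apart from the other 6 arrays, 1.51-fold below vehicle and 1.35-fold below Dex (log2 differences -0.60 and -0.43, SE 0.04, adjusted p = 6.88e-09 and 1.27e-06). The smaller fall of Creld2 with Dex alone (log2 difference -0.17, adjusted p = 0.0062) did not pass after quantile normalization (-0.11, adjusted p = 0.0533) or without Dex replicate b (adjusted p = 0.0507).

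**Figure D2:**
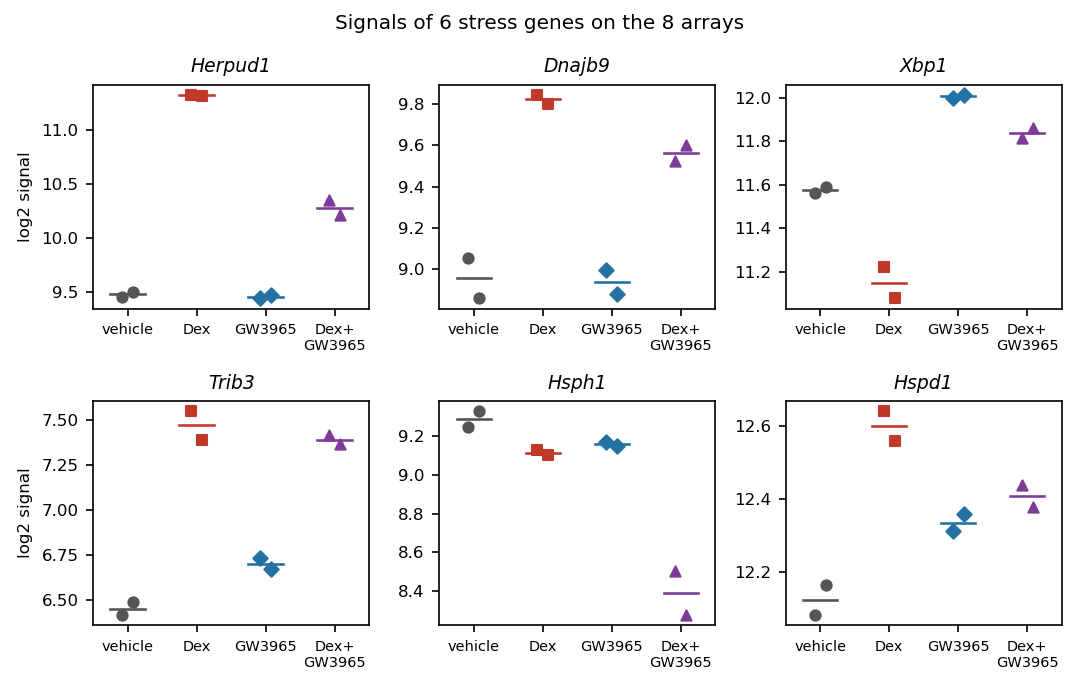
Log2 signal (vertical axes, a separate range in each panel) of 6 genes on the 2 arrays of each group, with lines at the group means. Herpud1 and Dnajb9 are highest with Dex, Xbp1 is lowest with Dex and highest with GW3965, Trib3 is high in both groups that received Dex, Hsph1 is lowest with Dex+GW3965, and Hspd1 is lowest with vehicle.

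Of the 17 ER genes, 5 rose and 8 fell with Dex, 1 rose and 4 fell with GW3965, and 3 rose and 10 fell with Dex+GW3965. Over all probe sets 17.2% were higher and 24.7% lower with Dex, 5.93% and 14.5% with GW3965, and 15.6% and 21.2% with both. Besides Herpud1 and Dnajb9, Dex raised Manf, a secreted factor that guards ER calcium and proteins (0.21 on the log2 scale), Pdia4, a disulfide isomerase (0.19), and Hsp90b1, the Hsp90 of the ER (0.09). The call of Hsp90b1 was lost without any 1 of the vehicle, Dex or GW3965 arrays, for instance without vehicle replicate a (adjusted p = 0.0523).

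Besides Xbp1 and Creld2, Dex lowered 6 ER genes. The disulfide isomerases Pdia3 and Pdia6 stood at -0.41 and -0.35, and the lectin chaperone Calr at -0.35. Dnajc3, a cochaperone of BiP, stood at -0.38, Sdf2l1, of the ER chaperone complex, at -0.20, and Dnajb11, another Hsp40 of the ER, at -0.16. After quantile normalization Sdf2l1 gave -0.14 and Dnajb11 -0.10, which did not pass (adjusted p = 0.104). With Dex+GW3965 the same 6 genes also passed, between -0.19 for Sdf2l1 and -0.39 for Dnajb11, and so did Hsp90b1 at -0.15 and Hyou1, the nucleotide exchange factor of BiP, at -0.19. The call of Hyou1 was lost without Dex+GW3965 replicate a (adjusted p = 0.215) or vehicle replicate a (adjusted p = 0.0835). GW3965 alone lowered Hyou1 (-0.31), Dnajc3 (-0.24), Dnajb11 (-0.16) and the membrane lectin Canx (-0.14), but Dnajb11 and Canx did not pass without either GW3965 array, without vehicle replicate a or after quantile normalization, which also moved Dnajc3 to -0.16 (adjusted p = 0.0179). The fall of Canx is that of the brightest of its 3 probe sets, and 1 of the others was higher with Dex (0.16, adjusted p = 0.00344). Atf6, the membrane-bound factor of its own arm, passed in no comparison, at 0.09 with Dex, -0.06 with GW3965 and 0.07 with both.

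The neighbors of these genes in the ER did not all share their direction. Counts of this and the other lists below stand beside 17.2% of all probe sets higher and 24.7% lower with Dex. These shares were 5.93% and 14.5% with GW3965, and 15.6% and 21.2% with both. No list was tested against them. Of 11 tested genes of ER-associated degradation, the route by which misfolded proteins leave the ER, 7 rose and 1 fell with Dex, 0 rose and 4 fell with GW3965, and 5 rose and 1 fell with both. The fall with Dex was that of Derl2, a part of the export channel, at -0.11, which was lost under 11 of 15 alternatives and turned to 0.0039 as a mean of its probe sets. Edem1, a lectin that marks misfolded glycoproteins, read 11.16 and 10.97 with vehicle, 13.25 and 13.22 with Dex, 10.92 and 10.85 with GW3965 and 12.49 and 12.57 with Dex+GW3965. The count with GW3965 fell from 4 to 1 without GW3965 replicate b or after quantile normalization. Like Herpud1, Edem1 was highest with Dex and intermediate with both compounds, at log2 differences of 2.17 and 1.46 against vehicle and -0.71 against Dex. Os9 (0.73) and Selenos (0.51), which hold and export degradation substrates, followed with Dex. Of 29 other ER folding and translocon genes, 10 rose and 8 fell with Dex and 1 rose and 10 fell with GW3965, of which 5 fell without GW3965 replicate b. P4hb, protein disulfide isomerase itself, stood at 0.29 with Dex, -0.69 with GW3965 and 0.25 with both.

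Serpinh1, the collagen chaperone, fell by 0.67 on the log2 scale with Dex, by 0.35 with GW3965 and by 0.48 with both. As a mean of its probe sets, Serpinh1 gave -0.38 with Dex, -0.19 with GW3965, which did not pass, and -0.25 with both. Of the 10 markers of stellate cells and fibroblasts, 7 fell and 2 rose with Dex (Dcn by 0.58 and Rgs5 from below background), 7 fell and 0 rose with GW3965, and 6 fell and 1 rose with both (Rgs5). Rgs5 was below background with vehicle and GW3965 and the other 9 above it in every group. The log2 of the summed linear signals of the markers was 12.50 to 12.51 with vehicle, 11.81 to 11.85 with Dex, 12.15 to 12.18 with GW3965 and 11.74 with both. The part of these cells in the fall of Serpinh1 was not tested. Of 6 tested ER stress sensors and their proteases, 3 rose and 0 fell with Dex, among them Eif2ak3, which encodes PERK (0.28), and Atf6b (0.34), a relative of Atf6. All 3 calls were lost without Dex replicate b, and that of Eif2ak3 also without vehicle replicate b.

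In the ATF4 arm, 4 of 5 genes rose with Dex, 2 rose and 1 fell with GW3965, and 3 rose with both. Atf4, the factor itself, read 10.42 and 10.42 with vehicle, 10.71 and 10.71 with Dex, 10.71 and 10.61 with GW3965 and 10.57 and 10.60 with Dex+GW3965. All 3 treated groups lay above vehicle, at log2 differences of 0.29, 0.24 and 0.16 (SE 0.04, adjusted p = 1.6e-05, 0.000479 and 0.00439).

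Trib3, a pseudokinase that is a target of ATF4 and binds AKT, read 6.42 and 6.49 with vehicle, 7.55 and 7.39 with Dex, 6.73 and 6.67 with GW3965 and 7.41 and 7.37 with both. The 2 groups with Dex overlapped and stood above the rest. Dex raised Trib3 2.02-fold and Dex+GW3965 1.91-fold (log2 differences 1.01 and 0.94, SE 0.09, adjusted p = 2.27e-08 and 8.39e-08), and its other 2 probe sets rose too, by 1.19 and 0.93 with Dex. The rise of Trib3 with GW3965 (0.25, adjusted p = 0.0472) did not pass without any 1 array other than Dex replicate b, at adjusted p = 0.0501 to 0.208, and was larger as a mean of its probe sets (0.39, adjusted p = 0.00885).

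Asns, which encodes asparagine synthetase, was dim, at 5.56 and 5.73 with vehicle, 6.44 and 6.14 with Dex, 5.27 and 5.08 with GW3965 and 5.88 and 6.06 with Dex+GW3965. No groups overlapped. Dex raised it 1.56-fold (log2 difference 0.64, SE 0.13, adjusted p = 0.000499), and both GW3965 arrays were below 5.49, taken as the background level, so its fall there was at least 0.15 on the log2 scale (adjusted p = 0.014). The call of Asns with GW3965 was lost without GW3965 replicate b (adjusted p = 0.157) or vehicle replicate b (adjusted p = 0.105), and Dex+GW3965 gave 0.32 against vehicle (adjusted p = 0.0572).

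Chac1, which breaks down glutathione, read 6.76 and 6.60 with vehicle, 6.98 and 7.06 with Dex, 7.00 and 6.70 with GW3965 and 7.04 and 7.28 with both. GW3965 overlapped with vehicle and with Dex, and vehicle was below Dex and Dex+GW3965. Chac1 rose by 0.34 with Dex and by 0.48 with both (SE 0.11, adjusted p = 0.0166 and 0.00186), the first of which was lost without Dex replicate b (adjusted p = 0.106) or vehicle replicate b (adjusted p = 0.123). Ddit3, which encodes the proapoptotic factor CHOP, read 7.01 and 7.16 with vehicle, 7.02 and 7.00 with Dex, 7.16 and 7.13 with GW3965 and 6.91 and 6.96 with both. The arrays with both compounds were lowest and the other groups overlapped with vehicle, and Ddit3 passed in no comparison (-0.07 with Dex, 0.06 with GW3965 and -0.15 with both, adjusted p = 0.538, 0.673 and 0.177).

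Among 32 other tested genes of the integrated stress response, the program shared by the eIF2alpha kinases, 12 rose and 6 fell with Dex, 4 rose and 5 fell with GW3965, and 8 rose and 7 fell with both. Of all probe sets 17.2% passed as higher and 24.7% as lower with Dex, 5.93% and 14.5% with GW3965, and 15.6% and 21.2% with both. The 4 that rose became 2 without GW3965 replicate b or without either vehicle array. Fgf21, a hormone of the fasting liver, stood at 1.48 with Dex, 0.13 with GW3965 and 1.15 with both, and Nupr1, a stress-induced chromatin protein, at 1.38, -0.81 and 1.22. Cebpb, a partner of ATF4, stood at 1.23, 0.46 and 0.33, so that it was 0.90 lower with both compounds than with Dex (log2 difference -0.90). The kinase gene Eif2ak2, which encodes PKR and is also raised by interferon, stood at 1.30, 0.44 and 2.08. The Dex effect did not extend to every target of ATF4: Slc3a2, a subunit of amino acid transporters, fell by 0.19 with Dex, and the serine synthesis gene Psat1 stood at 0.11 with Dex, not passing, and fell by 0.67 with GW3965.

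Of the 8 cytosolic and mitochondrial genes read, 3 rose and 2 fell with Dex, 3 rose and 1 fell with GW3965, and 3 rose and 2 fell with both. The shares of all probe sets were 17.2% higher and 24.7% lower, 5.93% and 14.5%, and 15.6% and 21.2%, in this order. Hsph1, the Hsp110 that recharges Hsp70, read 9.25 and 9.33 with vehicle, 9.13 and 9.10 with Dex, 9.17 and 9.15 with GW3965 and 8.51 and 8.28 with Dex+GW3965. Only the pair with both compounds stood far from the others, 1.86-fold below vehicle and 1.65-fold below Dex (log2 differences -0.90 and -0.72, SE 0.06, adjusted p = 4.1e-09 and 2.04e-07). A second probe set of Hsph1 gave -0.82 and -0.58 for the same comparisons and also fell with GW3965 alone (-0.39, adjusted p = 0.000567), where the probe set read gave -0.13 (adjusted p = 0.178). Its small fall with Dex (-0.17, adjusted p = 0.0403) was lost without either Dex array, either GW3965 array or vehicle replicate b, and after quantile normalization (adjusted p = 0.135).

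Hsp90ab1, the constitutive cytosolic Hsp90, read 12.10 and 12.09 with vehicle, 11.64 and 11.63 with Dex, 11.95 and 11.93 with GW3965 and 11.48 and 11.60 with both. All treated arrays lay below vehicle, by 1.38-fold with Dex, 1.12-fold with GW3965 and 1.47-fold with both (log2 differences -0.46, -0.16 and -0.55, SE 0.04, adjusted p = 2.79e-08, 0.00766 and 3.14e-09). The second probe set of Hsp90ab1 gave -0.46, -0.04 and -0.55, so that its GW3965 value did not pass (adjusted p = 0.584), and that of the probe set read was lost without GW3965 replicate b (adjusted p = 0.0804).

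The mitochondrial chaperonin genes Hspd1 and Hspe1, which share the heat shock elements printed above, rose in every treated group. Hspd1, the Hsp60, read 12.08 and 12.17 with vehicle, 12.64 and 12.56 with Dex, 12.31 and 12.36 with GW3965 and 12.44 and 12.38 with both. Vehicle was lowest and Dex highest, with log2 differences of 0.47, 0.21 and 0.28 against vehicle (SE 0.04, adjusted p = 2.14e-08, 0.000929 and 1.59e-05). Hspe1, its lid, ran from 12.24 and 12.25 with vehicle to 12.52 and 12.50 with Dex, at differences of 0.27, 0.11 and 0.17 for the same groups. The rise of Hspe1 with GW3965 was lost without either GW3965 array or without vehicle replicate a (adjusted p = 0.0662).

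Hspb1, the small heat shock protein Hsp27, read 7.06 and 7.21 with vehicle, 7.64 and 7.39 with Dex, 7.62 and 7.64 with GW3965 and 7.53 and 7.41 with both. Every treated array lay above vehicle, at log2 differences of 0.38, 0.49 and 0.33 (SE 0.09, adjusted p = 0.00231, 0.000714 and 0.00635). The first was lost without Dex replicate a (adjusted p = 0.0625) and the last without Dex+GW3965 replicate a (adjusted p = 0.0696) or vehicle replicate a (adjusted p = 0.0681). Hsf1, the heat shock factor, read 6.04 and 6.20 with vehicle, 6.29 and 6.20 with Dex, 5.88 and 6.05 with GW3965 and 6.18 and 6.17 with both. Its groups overlapped with vehicle, and it passed in no comparison (0.12, -0.15 and 0.06, adjusted p = 0.38, 0.345 and 0.733). Dnajb1, the inducible Hsp40, and Cryab, a small heat shock protein, also passed in none, with group means within 0.12 and 0.20 of each other on the log2 scale.

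Among 21 other tested heat shock genes, 7 rose and 5 fell with Dex, 4 rose and 6 fell with GW3965, and 6 rose and 4 fell with both. The shares of all probe sets higher and lower were 17.2% and 24.7%, 5.93% and 14.5%, and 15.6% and 21.2%, in this order. With GW3965 the counts became 2 and 3 without vehicle replicate a, and with both compounds 2 fell without either of their arrays or without vehicle replicate b. Hspa1a, the inducible Hsp70, read 5.75 and 5.46 with vehicle, 6.52 and 6.52 with Dex, 6.73 and 6.75 with GW3965 and 6.28 and 6.37 with both, at log2 differences of 0.91, 1.13 and 0.72. All treated arrays lay above vehicle, which was near the background level, and Hspa1a is nearly identical to Hspa1b, so which of the pair the probe set read is uncertain. The authors list the same GW3965 value of 1.13 under Hspa1b, among genes they call dexamethasone resistant by their own cut-off. Dnaja3, the Hsp40 of mitochondria, stood at 0.84 with Dex and 0.69 with both, and Hspa9, the mitochondrial Hsp70, at 0.47 and 0.28. As a mean of its probe sets, Hspa9 gave 0.22 and 0.14, of which the latter did not pass.

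TRiC is the ring that folds actin and tubulin, and prefoldin delivers its substrates. Of 12 tested genes of TRiC and prefoldin, 8 fell with Dex, 7 with GW3965 and 10 with Dex+GW3965, and 0 rose in any of the 3, at median log2 differences of -0.28, -0.15 and -0.38 beside -0.01, -0.03 and -0.02 over all probe sets (the plot of shares per list). The subunit gene Tcp1 stood at -0.51, -0.12 and -0.80, Cct6a fell by 0.41 with Dex and by 0.62 with both, and Cct8 stood at -0.53, -0.29 and -0.59. The 7 became 2 without GW3965 replicate b or after quantile normalization, 3 without GW3965 replicate a and 4 without vehicle replicate b, whereas the count with Dex stayed at 7 to 8 under all alternatives run with limma.

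Of 17 tested co-chaperones of Hsp90 and Hsp70, 2 rose and 8 fell with Dex, 0 rose and 7 fell with GW3965, and 1 rose and 12 fell with both. The 7 became 3 without GW3965 replicate a or after quantile normalization, and 4 without GW3965 replicate b or vehicle replicate a. Fkbp5, an immunophilin that holds back the GR, was an exception, at 6.56 and 6.62 with vehicle, 9.84 and 9.71 with Dex, 6.27 and 6.25 with GW3965 and 8.38 and 8.36 with both. Its order of groups was that of Herpud1 and Edem1, with a log2 difference of 3.18 for Dex, 1.78 for Dex+GW3965 and -1.40 between them. Its relative Fkbp4, which favors GR transport, fell by 0.48 with Dex and by 0.64 with both. Stip1, which joins Hsp70 to Hsp90, stood at -0.13 with Dex, not passing, and at -0.51 with both.

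**Figure D3:**
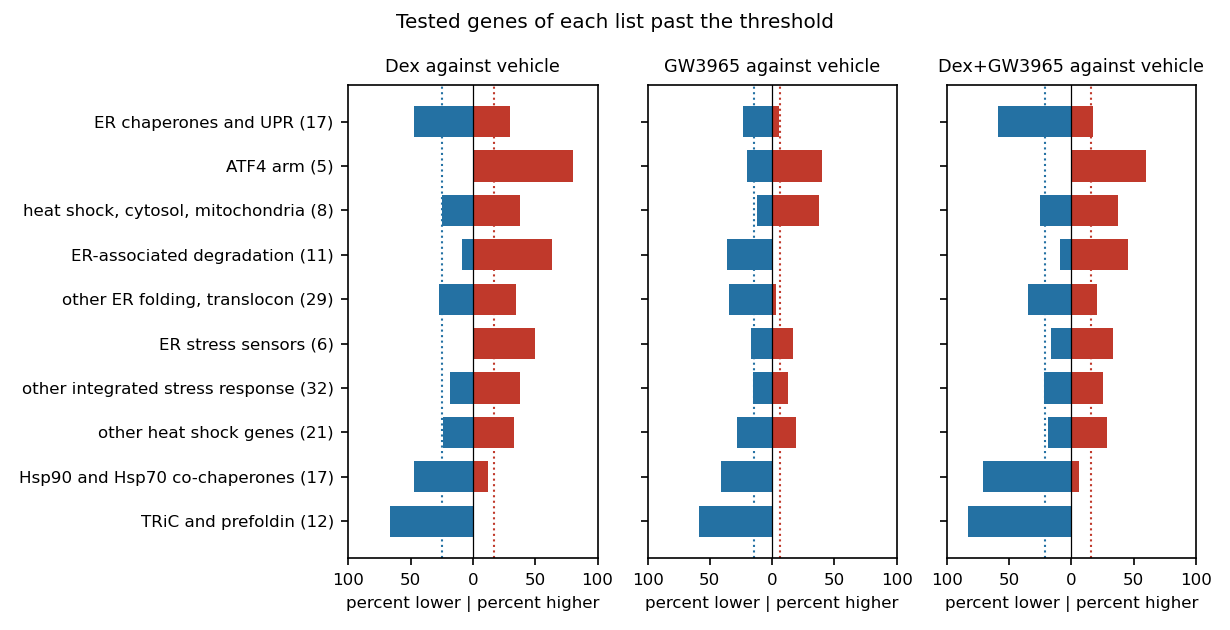
Percent of the tested genes of each list (number in brackets) past the adjusted p threshold, with the share that was higher to the right and lower to the left of 0, in each comparison with vehicle. Dotted lines mark the same shares over all 16253 probe sets, and TRiC with prefoldin extends to the left alone, with 8, 7 and 10 of 12 genes.

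Dex+GW3965 against Dex asks what the LXR agonist changed in rats that received the glucocorticoid. Of the 30 genes 14 passed (46.7%), 2 higher (6.67%) and 12 lower (40.0%), against 22.8% of all probe sets, 13.4% higher and 9.38% lower. Their median log2 difference was -0.08 beside -0.0007 over all probe sets. Herpud1 (-1.04), Hsph1 (-0.72), Creld2 (-0.43) and Dnajb9 (-0.26) have been given above. Pdia4 (-0.24), Hsp90b1 (-0.24), Dnajb11 (-0.23), Manf (-0.17) and Hspa5 (-0.16) were also lower in the ER, Hspd1 (-0.19) and Hspe1 (-0.10) in mitochondria, and Atf4 (-0.13) in its arm. The genes that were higher were Xbp1 (0.69) and Pdia3 (0.12). The calls of Pdia3, Atf4 and Hspe1 were lost without either Dex array and without Dex+GW3965 replicate b, and that of Hspa5 without Dex replicate b (adjusted p = 0.0529). Of the 32 other genes of the integrated stress response, 15 were lower and 3 higher (9 lower without Dex replicate a or Dex+GW3965 replicate b), with Psat1 at -0.84 and Phgdh, also of serine synthesis, at -0.48.

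Dex+GW3965 against GW3965 asks what the glucocorticoid changed in rats that received the LXR agonist, and 16 of the 30 genes passed (53.3%), 5 higher and 11 lower, against 35.8% of all probe sets, 19.0% higher and 16.8% lower. Those higher were Herpud1 (0.82), Asns (at least 0.48), Trib3 (0.69), Dnajb9 (0.62) and Chac1 (0.31), the last of which was lost without GW3965 replicate b (0.16, adjusted p = 0.398) or Dex+GW3965 replicate b. Those lower ran from Hsph1 (-0.77) and Creld2 (-0.47) through Hsp90ab1 (-0.39) and Pdia3 (-0.30) to Xbp1 (-0.17), lost without GW3965 replicate b or Dex+GW3965 replicate a, and Hsp90b1 (-0.15).

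The interaction tests whether the Dex effect differed between rats with and without GW3965 (the plot of Dex effects with and without GW3965). It passed for 14 of the 30 genes (46.7%), 3 higher (10.0%) and 11 lower (36.7%), against 22.8% of all probe sets, 15.8% higher and 6.93% lower. Quantile normalization changed the split over all probe sets from 2571 higher and 1127 lower to 1843 and 1587, and that of the members to 1 higher and 13 lower. Herpud1 stood at -1.015 (SE 0.07, adjusted p = 6.64e-09), since Dex raised it by 1.83 without GW3965 and by 0.82 with it. For Hsph1 the interaction was -0.59 (SE 0.09, adjusted p = 0.000132), from a Dex effect of -0.17 alone and -0.77 with GW3965, but its second probe set gave -0.19 (adjusted p = 0.189).

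Hspb1 (-0.53), Hspd1 (-0.40), Atf4 (-0.37) and Hspe1 (-0.21) rose with each compound alone, and in rats on GW3965 the Dex difference was -0.16, 0.07, -0.07 and 0.06, none of which passed. Creld2 (-0.31), Hsp90b1 (-0.24), Pdia4 (-0.21), Hspa5 (-0.15) and Manf (-0.15) also had a lower Dex effect with GW3965 than without. Dnajc3 (0.28), Xbp1 (0.26) and Hyou1 (0.24) had a higher one, but the second probe set of Hyou1 gave 0.10 (limma adjusted p = 0.627). The values of Dnajc3 and Hyou1 did not pass after quantile normalization. Those of Hspa5, Hyou1 and Manf each failed when most single arrays were left out, at adjusted p = 0.0582 for Hspa5 without Dex replicate a. For Trib3 (-0.33, adjusted p = 0.0597) and Dnajb9 (-0.24, adjusted p = 0.0552) the interaction missed the threshold.

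**Figure D4:**
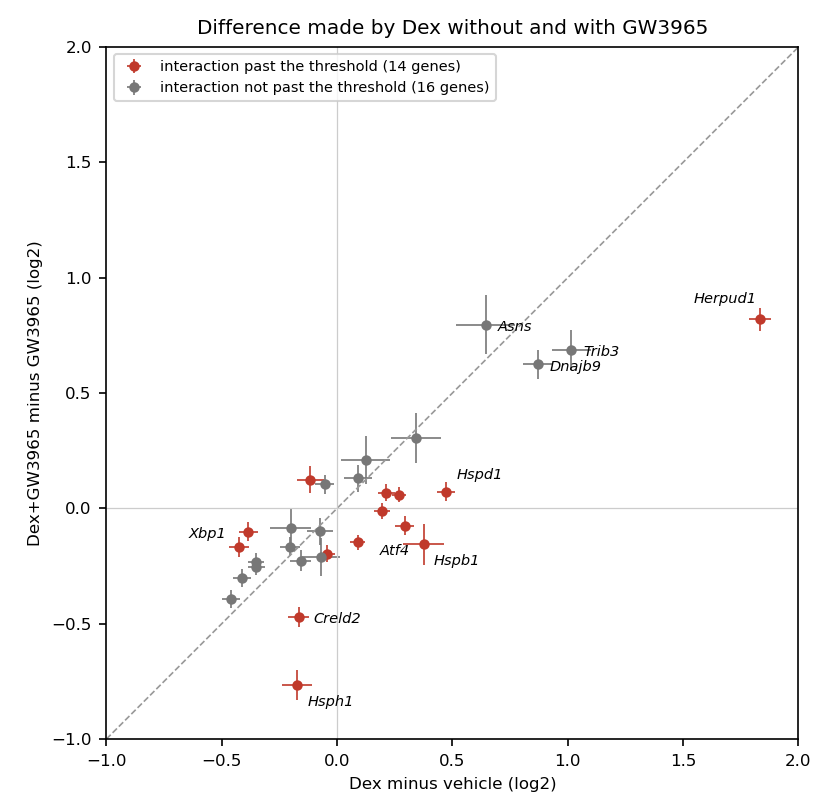
Log2 difference made by Dex in rats without GW3965 (horizontal axis) and with it (vertical axis) for the 30 genes, with standard errors from limma; the dashed line marks equal effects. Red points are the 14 genes whose interaction passed, and Herpud1, at 1.83 and 0.82, lies farthest below the line.

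Markers of liver cell types moved with the groups. Hepatocyte markers, 9 of 10 read and all above background, were bright in every group, as the tissue label has it. The log2 of their summed linear signals was 16.94 to 17.04 on all arrays. The sums below are on the same scale, and the brightest markers weigh most in them. For B and plasma cells 6 of 8 markers were read, of which Ms4a1, Mzb1, Tnfrsf17 and Pou2af1 were below background, and the sum was 8.94 to 9.04 with vehicle, 7.79 to 7.91 with Dex, 8.58 to 8.64 with GW3965 and 8.01 to 8.09 with both. The 8 Kupffer cell markers read summed to 12.07 to 12.13, 11.95 to 11.96, 12.43 and 12.02 to 12.06 in the same order, and the 7 sinusoidal endothelial markers to 11.91 to 11.94, 11.61 to 11.62, 11.91 and 11.41 to 11.42. Neutrophil markers, 3 read with S100a8 and Cxcr2 below background, summed to 7.79 to 7.81 with vehicle and 5.99 to 6.60 in the other groups. Erythrocyte markers, 4 read, summed to 13.52 to 13.61, 13.58 to 13.61, 14.12 to 14.20 and 13.10 to 13.13. These 4 did not move together: against vehicle, 2 were called higher and 2 lower with GW3965, at log2 differences of -1.04 to 0.94. With Dex 0 were higher and 2 lower, and with both 0 were higher and 4 lower. Cholangiocyte markers, 6 read with Krt7, Krt19, Cftr and Cd24 below background, summed to 8.73 to 8.78, 8.49 to 8.53, 8.56 to 8.62 and 9.11 to 9.15. Of 8 markers of T and NK cells, 7 were below background in every group, and Gzmb was above it with Dex+GW3965 alone, at 5.57 and 5.63, where it was called higher than vehicle (limma adjusted p = 4.7e-05). The other markers said to be below background were so as a mean over the 8 arrays, and with vehicle Ms4a1, S100a8 and Krt19 were above it. The part of any of these cells in the results was not tested.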

How the data were processed

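Total RNA of rat liver was hybridized to 8 Affymetrix rat genome arrays. The authors deposited log2 signals, 1 for each of 31099 probe sets. The paper's methods describe perfect-match probes re-mapped to UniGene, with MAS background subtraction. The submitters' processing notes name MAS5, so which processing gave the deposited values is uncertain. How the arrays were scaled is not given in the sources used here. The log2 scale was read from the range, 2.50 to 14.95, and since medians per array lay between 5.48 and 5.52 the values were used as deposited. Processing by perfect-match probes alone and background subtraction, where used, both make dim signals less certain.

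After removal of 57 control probe sets, 31042 were left, of which the annotation gives 20826 a single symbol, 436 several and 9780 none. The 16253 probe sets whose signal exceeded the array's median on at least 2 arrays were tested. A group means model over all 8 arrays was fitted with limma 3.58.1 in R 4.3.3 (lmFit and eBayes, trend set), which had 4 degrees of freedom of its own and 12.7 from the prior. Adjusted p-values are Benjamini-Hochberg over the 16253. A group mean below 5.49, the mean of the array medians, was taken as not above background, a rule set after values were seen, and a change to it is given as at least its distance from that level. The fit was tested on simulated data, with spreads shuffled over probe sets and a small part of them changed. Such data lack the link of spread to intensity, so the test cannot judge the trend. Motifs were searched on both strands of RefSeq promoter sequences (GRCr8).

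The genes, lists, motifs and naming rule were chosen with earlier results of these data known. Values on each array are given for up to 4 genes per arm with the largest differences among those called without overlap, for every ATF4 arm gene, for interactions of at least 0.5, and for Hspa5, Xbp1 and Hsf1. From each other list at most 3 called genes per comparison with the largest differences are named, and Phgdh and Slc3a2, outside it, were chosen after their values were seen. Hspe1, Edem1, Fkbp5 and Hspa1a are given per array beyond the rule. The alternatives were quantile normalization, 2 other filters, no intensity trend, only the groups compared, gene means, the letters as a block, each array left out, and the methods' one-sample test. For the other lists they were added after the data were seen.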

Additional observations from a re-analysis of the deposited data

Results flagged for a closer look

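For 14 of the 30 genes the effect of Dex differed between rats with and without GW3965 by a test of the difference itself, the interaction term of limma at an adjusted p under 0.05. This is 46.7% of the genes, 10.0% higher and 36.7% lower, against 22.8% of all probe sets, 15.8% higher and 6.93% lower. On the log2 scale the difference was -1.015 for Herpud1, -0.59 for Hsph1, -0.53 for Hspb1, -0.40 for Hspd1, -0.37 for Atf4, -0.31 for Creld2, -0.24 for Hsp90b1, -0.21 for Hspe1, -0.21 for Pdia4, -0.15 for Hspa5 and -0.15 for Manf. It was 0.28 for Dnajc3, 0.26 for Xbp1 and 0.24 for Hyou1. The second probe sets of Hsph1 and Hyou1 gave -0.19 and 0.10, which did not pass (limma adjusted p = 0.189 and 0.627). Without the intensity trend 6 of the 30 genes passed (Herpud1, Hsph1, Hspb1, Hspd1, Atf4 and Creld2). Over all 16253 probe sets the interaction passed for 3698 with the trend and 2684 without it. With 2 arrays per group, no array was tested as an outlier.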

How the results depend on the processing

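None of the 30 genes turned its sign in a comparison where it was called under any alternative, whereas among the other pathway genes named Derl2 did so with Dex (-0.11 against 0.0039 as a mean of its probe sets). Of 30 genes, 22 were called for Dex, 12 for GW3965 and 21 for both compounds against vehicle, 14 for both against Dex, 16 for both against GW3965 and 14 in the interaction. In this order, leaving out 1 array at a time gave 18 to 22, 6 to 12, 19 to 22, 10 to 14, 13 to 18 and 11 to 14, and the 6 with GW3965 came without GW3965 replicate b. Without the intensity trend, GW3965 against vehicle fell to 6, Dex+GW3965 against Dex to 7 and the interaction to 6. Over all 16253 probe sets the calls fell too, from 3325 to 2222, from 3698 to 2711 and from 3698 to 2684. The higher shares of the 30 genes than of all probe sets in these comparisons thus depend partly on the trend. The methods' t-test, run as a one-sample test on 2 log ratios, called 0 of 30 genes in each of the 5 comparisons between groups after Benjamini-Hochberg adjustment. Unadjusted, at the methods' threshold, it called 16, 7, 8, 6 and 7 in the same order. With the letters as a replicate block, counts were 21, 11, 21, 12, 16 and 12. Deviations of arrays with the same letter correlated at -0.23 to 0.08 between groups. With 2 arrays per group this cannot decide whether the letters pair the arrays, which the labels do not state. The block changed no other result by over 1.5 times. Quantile normalization, both other filters, gene means and fits of only the groups compared gave counts within 1.5 times. Between the 2 arrays of each group, the median absolute log2 difference was 0.07 to 0.09, and their number limits the precision. Small differences such as those of Hsp90b1, Trib3 with GW3965 and Hspa5 in the interaction rest on single arrays. Dim genes such as Asns and Hspa1a lie near background. Causes were not tested.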
